A study of Mus musculus with 7 samples.

Results

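Myelin and oligodendrocyte genes were followed in mouse brain through 8 transcripts, Trf, Mbp, Mog, Mag, Mobp, Cnp, Mal and Cldn11. They were found by gene symbol, current or older, among the probes with a value. All 8 genes were measured, by 15 of the 13304 probes with values: Mbp and Mobp by 3 probes each, Mog, Cnp and Mal by 2 each, and Trf, Mag and Cldn11 by 1 each. RNA came from brain tissue of female C57BL/6 mice, given as 5-week-old in every group, with no word on whether that age was at the first dose or at collection. An untreated control filled 1 array, which all comparisons with the control share. The other 6 held mice that took an aqueous extract of Ephedra herba, a herbal drug that contains sympathomimetic alkaloids, by mouth daily: 1 array for each of 50 and 1250 mg/kg after 1, 3 and 10 days. No condition has a second array, and how many mice went into an array is not stated in the labels, so the p-values speak of arrays and not of animals.

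Oligodendrocytes wrap axons of the central nervous system in myelin, a stack of compacted membrane that speeds conduction and feeds the axon. Compact myelin is held together by basic proteins such as Mbp. Adhesion molecules such as Mag sit on the side facing the axon, and tight junctions built from Cldn11 seal the layers at their edges. In young mice the brain is still laying down myelin, and white matter makes up much more of hindbrain tissue than of cortex. In bulk RNA, fewer oligodendrocytes and less transcript per oligodendrocyte cannot be told apart.

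Values are deposited log intensities, quantile normalized so that all arrays share 1 distribution, and read as log2, where a difference of 1 is a doubling. No source used here gives the base of the logarithm. Were it the natural logarithm, all folds would be larger, while differences, standard errors and p-values would keep their values. Of 10 oligodendrocyte markers 8 had a value, and their summed level (2 to the power of the value, over the list, in arbitrary units) was 669 on the control array and 607 to 666 on the treated arrays. The scaling between arrays mattered for these bright probes. The median difference of the 15 probes from the control on day 10 at 50 mg/kg was -0.067 after quantile normalization and -0.25 in the values as deposited, while all probes had medians of -0.0075 and -0.055. Statements that follow hold for quantile-normalized values, and the deposited values are given where they disagree.

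Against the control, the myelin transcripts stayed within 1.5-fold (0.585 on the log2 scale) on nearly all arrays. Only Mal probe 380259 went past that, on both day 3 arrays, so 1 of the 15 probes did so on each of them. Of all probes, 7.46% did so on day 3 at 50 mg/kg and 8.67% at 1250 mg/kg. On the other 4 arrays 0 of the 15 went past it, beside 0.271% and 1.01% of all probes for day 1 and 1.43% and 2.01% for day 10 (50 and 1250 mg/kg). The median difference of the 15 probes was -0.18 and -0.062 after 1 day, -0.045 and -0.0080 after 3 days, and -0.067 and -0.012 after 10 days, at 50 and 1250 mg/kg. As deposited, these medians were -0.17 and -0.036 after 1 day, -0.25 and -0.16 after 3 days, and -0.25 and -0.18 after 10 days. The standard deviation of a probe over the 7 arrays ran from 0.059 (Mbp probe 1450646) to 0.66 (Mal probe 380259), with a median of 0.18 beside 0.15 for all probes.

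**Figure D1:**
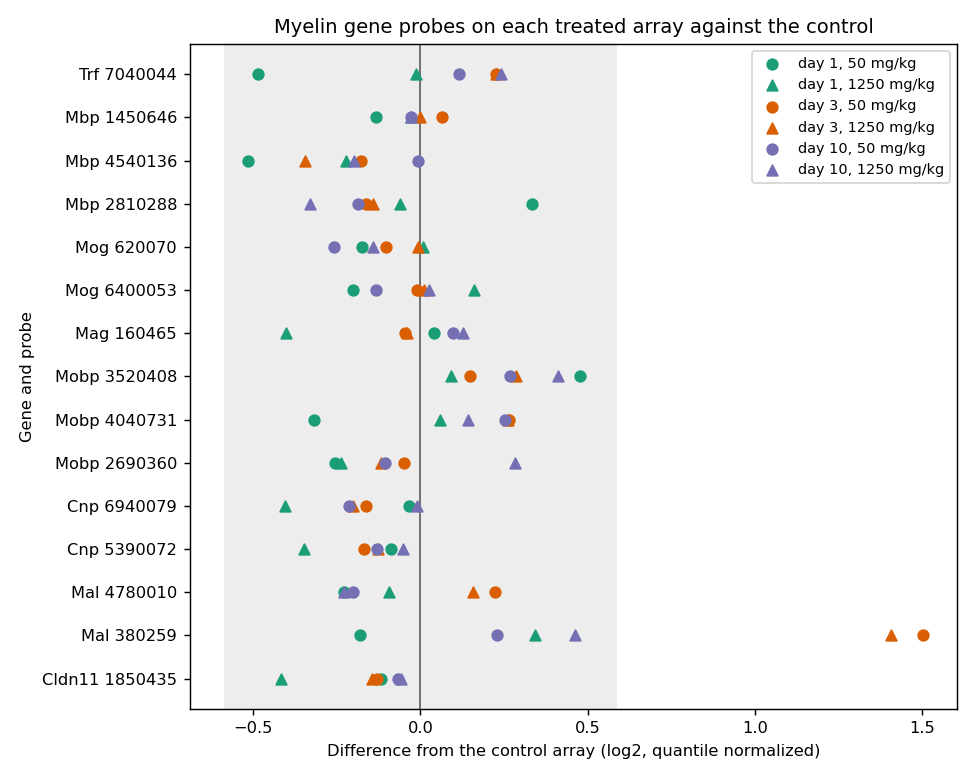
Difference of each treated array from the single control array (horizontal axis, log2, quantile-normalized values) for the 15 probes of the 8 genes (vertical axis). Colour gives the day and shape the dose, and the grey band marks differences under 1.5-fold. The 2 points of Mal probe 380259 on day 3, where it read 3.37 and 3.28 beside 1.87 in the control, are the only ones outside the band.

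Mbp encodes myelin basic protein, which holds the inner faces of the membrane together. Its probe 1450646 read 8.41 in the control, 8.27 and 8.38 after 1 day, 8.47 and 8.41 after 3 days, and 8.38 and 8.38 after 10 days, at 50 and 1250 mg/kg. This probe lies near the top of the range, where quantile normalization gives equally ranked probes of different arrays the same value, and arrays came out within 0.20 of each other. As deposited, the same probe spread further, with 8.48 in the control, 8.32 and 8.75 after 1 day, 8.44 and 8.63 after 3 days, and 8.08 and 8.17 after 10 days.

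The other Mbp probes, both annotated to a second transcript record, moved in opposite directions on day 1 at 50 mg/kg. Probe 4540136 read 5.95 in the control, 5.43 and 5.72 after 1 day, 5.77 and 5.60 after 3 days, and 5.94 and 5.75 after 10 days. It was below the control on all 6 treated arrays and lowest on day 1 at 50 mg/kg, while in the deposited values that array (5.56) and both day 3 arrays (5.56 and 5.55) were about equally low. Probe 2810288 read 3.35 in the control, 3.68 and 3.29 after 1 day, 3.19 and 3.21 after 3 days, and 3.16 and 3.02 after 10 days. It was highest on the array where the other 2 Mbp probes were lowest. Over the 7 arrays it correlated with probe 1450646 at -0.69 and with probe 4540136 at -0.56 (Pearson, arrays sharing 1 normalization). In the deposited values those correlations were 0.22 and 0.13, so their sign depends on the scaling.

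Mobp encodes myelin-associated oligodendrocytic basic protein, a second small basic protein of compact myelin. Its probe 3520408 read 4.29 in the control, 4.77 and 4.39 after 1 day, 4.44 and 4.58 after 3 days, and 4.56 and 4.71 after 10 days, at 50 and 1250 mg/kg. It was above the control on all 6 treated arrays. In the deposited values it was 0.096 below the control on day 3 at 50 mg/kg. Probe 4040731 read 4.13 in the control, 3.82 and 4.19 after 1 day, 4.40 and 4.40 after 3 days, and 4.38 and 4.28 after 10 days, and was lowest on day 1 at 50 mg/kg, where probe 3520408 was highest. Probe 2690360 read 3.48 in the control, 3.23 and 3.25 after 1 day, 3.44 and 3.37 after 3 days, and 3.38 and 3.77 after 10 days. The 3 pairs of Mobp probes correlated at only -0.30, 0.10 and 0.36 over the 7 arrays, so no single course describes Mobp. In the deposited values the same pairs correlated at -0.70, -0.064 and 0.020.

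Trf encodes transferrin, the iron carrier of plasma, which oligodendrocytes also make and which is used in iron supply for myelin formation. Its probe read 5.63 in the control, 5.15 and 5.62 after 1 day, 5.86 and 5.86 after 3 days, and 5.75 and 5.88 after 10 days, at 50 and 1250 mg/kg. Day 1 at 50 mg/kg stood apart, 0.48 below the control and 0.49 below it in the deposited values. The other 5 treated arrays lay between -0.015 and 0.24 from the control, and between -0.088 and 0.072 from it in the deposited values. The course of Trf was closest to that of Mobp probe 4040731 (r = 0.95 over 7 arrays, 0.91 in deposited values) and opposite to that of Mbp probe 2810288 (r = -0.95, and -0.70 in deposited values). Since the liver is the main source of plasma transferrin, liver transcripts were set beside it. Of 14 liver markers 10 had a value, and Alb, Fga, Fgb and Ahsg had none. Their summed level was 173 in the control, 163.5 and 308 after 1 day, 225 and 236 after 3 days, and 202 and 235 after 10 days. This sum includes Ttr, which the choroid plexus also makes, and the list's median difference from the control ran otherwise. It was -0.062 and 2.10 after 1 day, -0.16 and 0.39 after 3 days, and 0.67 and 1.85 after 10 days. Trf differed from the control by -0.48 and -0.015 after 1 day, 0.23 and 0.22 after 3 days, and 0.11 and 0.24 after 10 days. In the deposited values it differed by -0.49 and 0.072 after 1 day, -0.075 and 0.052 after 3 days, and -0.088 and 0.00023 after 10 days. The part of liver RNA in the Trf values was not tested.

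Mog encodes myelin oligodendrocyte glycoprotein, an immunoglobulin-family protein on the outermost myelin layer. Its probe 620070 read 4.65 in the control, 4.48 and 4.66 after 1 day, 4.55 and 4.64 after 3 days, and 4.39 and 4.51 after 10 days, at 50 and 1250 mg/kg. Probe 6400053 read 4.28 in the control, 4.08 and 4.44 after 1 day, 4.27 and 4.29 after 3 days, and 4.15 and 4.31 after 10 days. Both Mog probes were highest on day 1 at 1250 mg/kg, followed each other over the arrays (r = 0.76), and were higher at 1250 than at 50 mg/kg on each of the 3 days. The dose differences of probe 620070 were 0.18, 0.095 and 0.12 on days 1, 3 and 10, and those of probe 6400053 were 0.36, 0.019 and 0.16.

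Cldn11, Mag and Cnp correlated with each other over the arrays, and are among the highest pairs of the members. Over all 96 pairs of probes of different members the median r was 0.049, with 53 positive. The range ran from -0.95 (Trf with Mbp probe 2810288) to 0.96 (Cldn11 with Cnp probe 5390072), so the members as a whole had no shared course. Cldn11 (claudin 11) forms the tight junctions of myelin, Mag (myelin-associated glycoprotein) is an adhesion molecule facing the axon, and Cnp encodes 2',3'-cyclic nucleotide phosphodiesterase, an enzyme of uncompacted myelin. Their promoters are shown as those of 3 genes whose probes correlated over the arrays on both scales. Other pairs, such as Trf and a Mobp probe, did so too, but no window was listed for Trf. Each window holds 250 bases before and 50 from the transcription start on, from RefSeq on GRCm38.p6, 5′ to 3′ on the gene's strand. Capitals mark the letters ACAAAG or, on the opposite strand, CTTTGT, a core of sites bound by SOX factors such as Sox10, the main transcription factor of myelinating glia.
Cldn11, chr3:31149670-31149969, + strand: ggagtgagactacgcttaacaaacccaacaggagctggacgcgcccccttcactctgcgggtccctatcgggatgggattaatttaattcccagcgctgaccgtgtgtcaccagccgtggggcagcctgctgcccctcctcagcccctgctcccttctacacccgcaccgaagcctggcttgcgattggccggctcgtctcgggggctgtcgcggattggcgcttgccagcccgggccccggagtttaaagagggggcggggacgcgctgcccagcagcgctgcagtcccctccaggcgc
Mag, chr7:30914814-30915113, - strand: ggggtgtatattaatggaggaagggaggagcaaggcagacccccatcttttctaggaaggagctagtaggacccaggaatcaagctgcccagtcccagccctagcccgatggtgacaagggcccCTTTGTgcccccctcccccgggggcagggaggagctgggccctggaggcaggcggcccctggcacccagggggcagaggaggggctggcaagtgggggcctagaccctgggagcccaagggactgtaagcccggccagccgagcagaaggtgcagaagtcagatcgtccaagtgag
Cnp, chr11:100574689-100574988, + strand: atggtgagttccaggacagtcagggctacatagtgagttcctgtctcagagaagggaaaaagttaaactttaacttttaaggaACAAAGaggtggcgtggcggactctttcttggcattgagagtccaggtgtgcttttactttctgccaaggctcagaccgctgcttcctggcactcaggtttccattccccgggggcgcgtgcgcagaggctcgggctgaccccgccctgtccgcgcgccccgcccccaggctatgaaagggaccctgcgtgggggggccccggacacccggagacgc
The Mag window, 1 of 3 listed for that gene, and the Cnp window hold 1 match each, and the Cldn11 window holds 0. Of all 8 windows of the members 4 hold a match: 2 of the 3 Mag windows, that of Cnp and that of Mobp, which holds 6, while those of Mal and Mog hold 0. The 2 Mag windows with a match overlap and share the same run of letters. Among all 32851 windows of this length in the table, 18.7% hold at least 1 match. A match is a run of letters and not a measured site, and the lack of one in a window of this length says nothing about the factor. Of the 8 genes 6 had a window.

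Cldn11 read 7.12 in the control, 6.999 and 6.70 after 1 day, 6.99 and 6.97 after 3 days, and 7.05 and 7.06 after 10 days, at 50 and 1250 mg/kg. Mag read 5.92 in the control, 5.96 and 5.51 after 1 day, 5.87 and 5.88 after 3 days, and 6.01 and 6.04 after 10 days. Both were lowest on day 1 at 1250 mg/kg, at 0.42 and 0.40 below the control. Cnp probe 6940079 read 5.40 in the control, 5.37 and 4.995 after 1 day, 5.24 and 5.20 after 3 days, and 5.19 and 5.39 after 10 days. Cnp probe 5390072 read 3.33 in the control, 3.24 and 2.98 after 1 day, 3.17 and 3.21 after 3 days, and 3.20 and 3.28 after 10 days. The same array was lowest for both Cnp probes, and Cldn11 and both Cnp probes were below the control on all 6 treated arrays. Across the arrays Cldn11 correlated at 0.92 with Mag and at 0.96 with Cnp probe 5390072 (0.80 and 0.90 in deposited values), and the Cnp probes with each other at 0.94. Those correlations include the shared low point on day 1 at 1250 mg/kg and were not computed without it. Mag, unlike Cldn11 and Cnp, was above the control on 3 treated arrays. In the deposited values Mag was above it on 1 treated array only, day 1 at 50 mg/kg (by 0.051), and below it on 5. Which array was lowest depended on the scaling: in the deposited values Cldn11 was lower on day 3 at 50 mg/kg (6.82) than on day 1 at 1250 mg/kg (6.93), as were Mag (5.68 and 5.69) and Cnp probe 6940079 (5.06 and 5.15).

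Mal encodes a proteolipid that sorts membrane lipids and proteins in myelin and in epithelia. Its probe 380259 read 1.87 in the control, 1.69 and 2.21 after 1 day, 3.37 and 3.28 after 3 days, and 2.10 and 2.33 after 10 days, at 50 and 1250 mg/kg. It was highest on the 2 arrays of day 3. How many of all probes have day 3 readings apart from the other 5 arrays was not counted. Of all probes, 20.1% were called on day 3 in either direction. Probe 4780010, annotated to the same transcript record, read 4.42 in the control, 4.19 and 4.33 after 1 day, 4.64 and 4.57 after 3 days, and 4.22 and 4.19 after 10 days. It too was highest on the day 3 arrays, but by far less. As deposited, its day 3 readings (4.48 and 4.52) overlapped with the control (4.51).

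**Figure D2:**
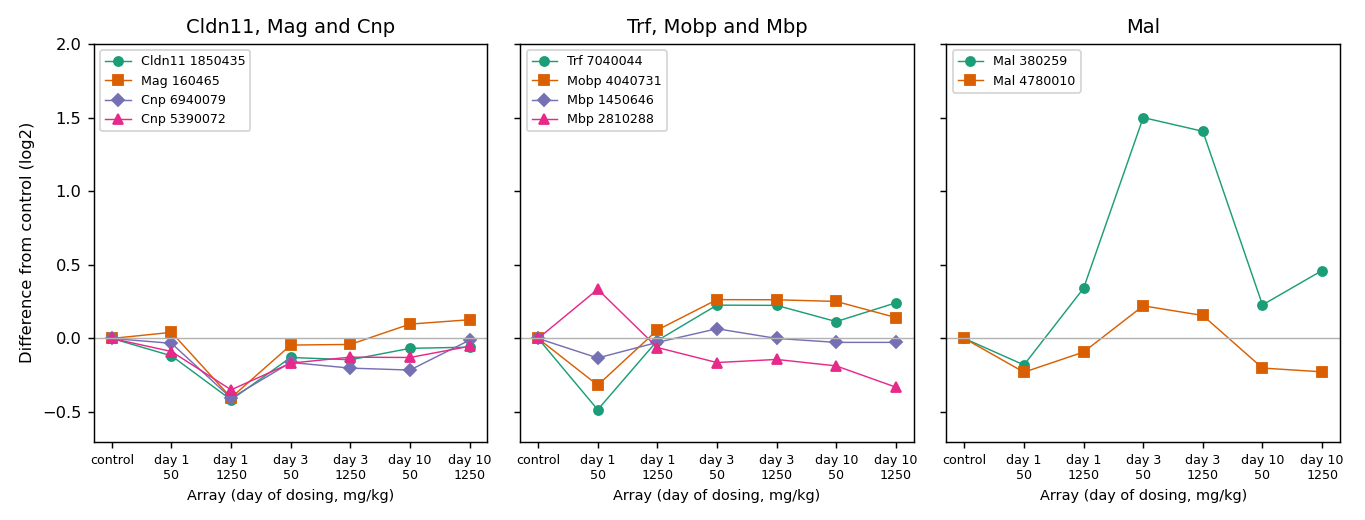
Difference from the control array (vertical axis, log2) along the 7 arrays (horizontal axis, day of dosing over dose in mg/kg) for probes of Cldn11, Mag and Cnp (left), Trf, Mobp and Mbp (middle) and Mal (right). Each line is 1 probe, and lines join separate samples only to guide the eye. The left probes share a low point on day 1 at 1250 mg/kg, Trf and Mobp probe 4040731 are low on day 1 at 50 mg/kg, and Mal probe 380259 is high on day 3 only.

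Dose was compared over the 6 treated arrays, 3 at each dose, with the day held as a block (limma, p-values adjusted by Benjamini-Hochberg over all 13304 probes). Of the 15 probes 0 passed an adjusted p under 0.05, beside 0.143% of all probes, and 0 had an unadjusted p under 0.05, beside 5.41% of all probes. The median difference of 1250 minus 50 mg/kg was 0.013, with 8 probes positive and 7 negative, beside -0.0027 for all probes. The largest differences were those of Mal probe 380259 (0.22 ± 0.11, standard error of the model), Trf (0.20 ± 0.099) and Mog probe 6400053 (0.18 ± 0.098), each with an adjusted p of 0.924 in limma. The 95% intervals of the 15 differences reached from -0.39 to 0.46, so differences up to about that size are not excluded. Differences of dose turned with the day for several genes. Mag differed by -0.44, 0.0045 and 0.030 on days 1, 3 and 10, and Mobp probe 3520408 by -0.39, 0.14 and 0.14. With 1 array per dose and day, the difference of the dose effect between days has no test.

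Day 10 was compared with day 1 over the same arrays, with the dose held as a block. Of the 15 probes 0 passed, beside 2.5% of all probes (1.8% being higher), and 6 had an unadjusted p under 0.05, beside 17.9% of all probes. Those 6 were Trf (0.43 ± 0.12, adjusted p = 0.0646 in limma), Mobp probes 2690360 (0.33 ± 0.13) and 4040731 (0.33 ± 0.13), Mag (0.29 ± 0.12), Mbp probe 4540136 (0.27 ± 0.12) and, in the other direction, Mbp probe 2810288 (-0.39 ± 0.13, adjusted p = 0.103). The median difference was 0.13, with 11 probes positive and 4 negative, beside -0.012 for all probes. It turned to -0.10 in the deposited values, beside -0.070 for all probes there, so no direction over the genes is given. The size for Trf rested on day 1 at 50 mg/kg. At that dose it differed by 0.60 and at 1250 mg/kg by 0.26, and without that array the value was 0.22 (adjusted p = 0.274). Trf passed without the day 1 array at 1250 mg/kg (0.63, adjusted p = 0.00893) and without either day 3 array (0.43, adjusted p = 0.0369 each time). As deposited, Trf differed by 0.16, Mobp probes 2690360 and 4040731 by 0.21 and 0.16, and Mag by 0.021. On that scale Mbp probe 4540136 differed by -0.0059 and Mbp probe 2810288 by -0.51.

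Transcripts of hindbrain and cerebellum, regions rich in fibre tracts, differed between the same arrays. Of 12 cerebellar markers 7 had a value, and 6 of the 7 were higher after 10 days than after 1 day, all 6 past the test, the list median being 1.47. Their summed level was 98.3 in the control, 94.2 and 89.6 after 1 day, 136 and 114 after 3 days, and 132 and 270 after 10 days, at 50 and 1250 mg/kg. Of 11 hindbrain markers only Tph2, Slc6a4 and Hoxb5 had a value, and their sum was 3.67 in the control, 2.68 and 2.86 after 1 day, 6.92 and 7.46 after 3 days, and 4.78 and 6.23 after 10 days. All 4 measured markers of cortex and hippocampus (of 10) differed downwards between these days, 1 of them past the test, and their median difference was -0.31. The part of the tissue collected in the myelin values was not tested.

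Day 3 was compared with the mean of days 1 and 10 in the same model, and Mal was the only member that passed. Mal probe 380259 was higher on day 3 by 1.24 ± 0.12 (adjusted p = 3.81e-07 in limma) and probe 4780010 by 0.38 ± 0.10 (adjusted p = 0.0117). These 2 of the 15 probes are 13.3%, beside 20.1% of all probes called in either direction and 11.3% called higher, which is near the members' share. At 50 and 1250 mg/kg separately, probe 380259 was higher by 1.48 and 1.01 and probe 4780010 by 0.44 and 0.32. Probe 380259 passed in each alternative that held it, at 1.01 to 1.48. Probe 4780010 did not pass in the deposited values (0.24, adjusted p = 0.118), after median scaling (0.26, adjusted p = 0.0783), or without the day 3 array at 50 mg/kg (0.32, adjusted p = 0.241) or at 1250 mg/kg (0.44, adjusted p = 0.09). The Mal probes thus differed by 0.87 in this comparison. Among 2273 genes with several probes the median gap was 0.20, and 76 genes had a gap at least as large. The other 13 probes had 95% intervals between -0.33 and 0.48 in all. Trf (0.26 ± 0.10, adjusted p = 0.0853) and Mobp probe 4040731 (0.23 ± 0.11, adjusted p = 0.151) passed without the day 1 array at 1250 mg/kg (0.36 and 0.34). Which way calls went over the whole table also depended on the scaling: 56.1% of them were higher on day 3, and 41.0% in the deposited values.

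**Figure D3:**
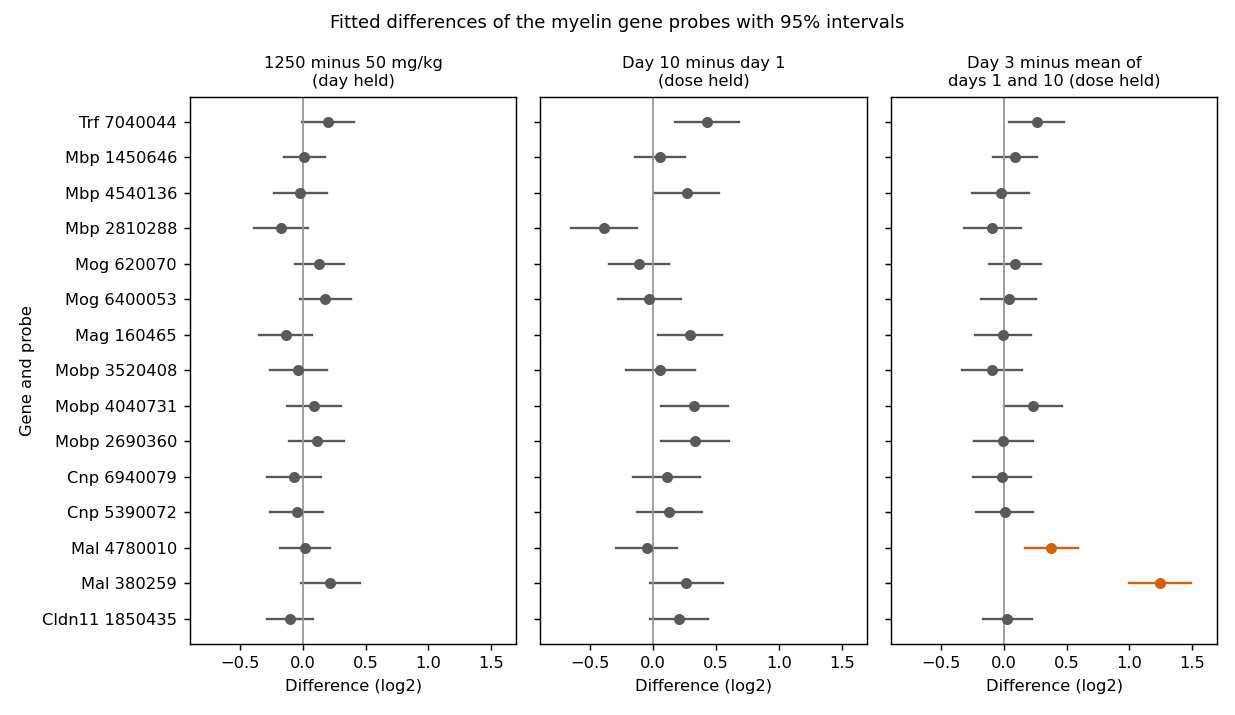
Fitted differences (horizontal axis, log2) of the 15 probes (vertical axis) for dose, for day 10 against day 1 and for day 3 against the mean of days 1 and 10, over the 6 treated arrays. Points are limma estimates, lines are 95% intervals, and orange marks an adjusted p under 0.05 over all probes. Only the 2 Mal probes in the day 3 panel are orange, at 1.24 and 0.38.

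The 6 treated arrays were also compared with the control. Of the 15 probes 0 passed, as did 0 of all 13304 (0.0%) in limma. At an unadjusted p under 0.05 there were 0 of the 15 and 268 of all probes (2.01%). The median difference was -0.062, with 4 probes positive and 11 negative, beside -0.011 for all probes. The single control array was taken to vary like the treated arrays, and Mal probe 380259 had the widest error (0.63 ± 0.52), since its 2 day 3 arrays stood far from the other 4 treated arrays.

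Other genes of the oligodendrocyte lineage were read from 4 lists, each gene by its brightest probe. Of 43 further genes of mature oligodendrocytes and myelin 33 had a value. For dose, for day 10 against day 1 and for treatment 0 of the 33 passed, with medians of 0.038, 0.092 and 0.030. In the deposited values and with median scaling, 2 of the 33 passed as higher on day 10 than on day 1. They were Klk6, a serine protease of oligodendrocytes (0.55 ± 0.15 higher on day 10 than on day 1, adjusted p = 0.0531 in limma), and Trim59 (0.46 ± 0.13, adjusted p = 0.0576), both given here from the quantile-normalized values, in which neither passed. Against the control, Cryab, a small heat shock protein, differed by -0.52 ± 0.20 and Lpar1, a lysophosphatidic acid receptor, by 0.43 ± 0.26.

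On day 3, 6 of the 33 were higher and 3 lower than on days 1 and 10, with a median of 0.0034, beside 20.1% of all probes called either way. Higher were Fa2h, which hydroxylates the fatty acids of myelin lipids (0.60 ± 0.10), Lpar1 (0.47 ± 0.11), Ugt8a, the enzyme that makes galactosylceramide (0.38 ± 0.11), Trim59 (0.34 ± 0.11), the tetraspanin Tspan2 (0.32 ± 0.10) and Nfasc, an adhesion molecule of the node region (0.30 ± 0.10). Lower were Opalin, a membrane protein of mature oligodendrocytes (-0.52 ± 0.11), Gal3st1, the enzyme that sulphates galactosylceramide (-0.45 ± 0.10), and Tmem125 (-0.44 ± 0.11). Fa2h read 3.94 in the control, 3.81 and 3.98 after 1 day, 4.55 and 4.64 after 3 days, and 4.11 and 4.10 after 10 days. Opalin read 4.49 in the control, 4.44 and 4.71 after 1 day, 4.13 and 3.93 after 3 days, and 4.43 and 4.62 after 10 days. Both genes were picked by the day 3 comparison itself, so the distance of their day 3 readings from the other 5 arrays is no separate result. How many of all probes have day 3 readings apart from the other arrays was not counted. Ugt8a read 3.45 in the control, 3.33 and 3.30 after 1 day, 3.74 and 3.92 after 3 days, and 3.76 and 3.41 after 10 days, so at 50 mg/kg day 10 was no lower than day 3. It did not pass in 4 of 12 alternatives, among them those without the day 3 or the day 10 array at 1250 mg/kg, and ran from 0.19 to 0.56. In the deposited values Ugt8a (0.27), Tspan2 and Nfasc no longer passed and Cryab passed as lower, which left 3 higher and 4 lower. Fa2h passed in all 12 alternatives, and Nfasc did not pass in 9 of 12. Of the 4 Nfasc probes 3 were called on day 3 in the main fit, and the 4 differed by 0.27 to 0.49. Opalin, Gal3st1 and Tmem125 passed in 11 of 12, the exception being the one without the day 3 array at 1250 mg/kg.

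Of 10 transcription factors of the lineage 6 had a value, and Olig1 was higher on day 3 (0.42 ± 0.096, adjusted p = 0.00391 in limma), the only one called. It read 5.78 in the control, 5.67 and 6.08 after 1 day, 6.18 and 6.43 after 3 days, and 5.83 and 5.96 after 10 days. It did not pass in the deposited values (0.26), with median scaling (0.29), or without either day 3 array. In the deposited values Sox8, a relative of Sox10, passed as lower. Olig2, a close relative of Olig1, differed by -0.13 ± 0.12 on day 3. Of 12 genes of oligodendrocyte precursors 7 had a value. Gpr17, a receptor of cells committed to differentiate, was lower on day 3 (-0.31 ± 0.10, adjusted p = 0.0434 in limma, lost in 5 of 12 alternatives), and Bcan, a proteoglycan also made by astrocytes, was higher by 0.43 ± 0.11 on 1 of its 2 probes. Bcan did not pass in the deposited values (0.30, adjusted p = 0.0622 in limma) or without the day 3 array at 1250 mg/kg. Of 14 measured genes of cholesterol synthesis, which supplies the main lipid of myelin, only Pmvk passed on day 3 (-0.35 ± 0.11, adjusted p = 0.0231 in limma), and it was lost in 4 of 12 alternatives. Fdps passed as lower on day 3 in the deposited values (-0.37) and with median scaling (-0.35), beside -0.24 here. Fdps differed by -0.30 ± 0.12 between day 10 and day 1 and passed in the deposited values and with median scaling. In the other comparisons 0 of the genes in these 3 lists passed.

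**Figure D4:**
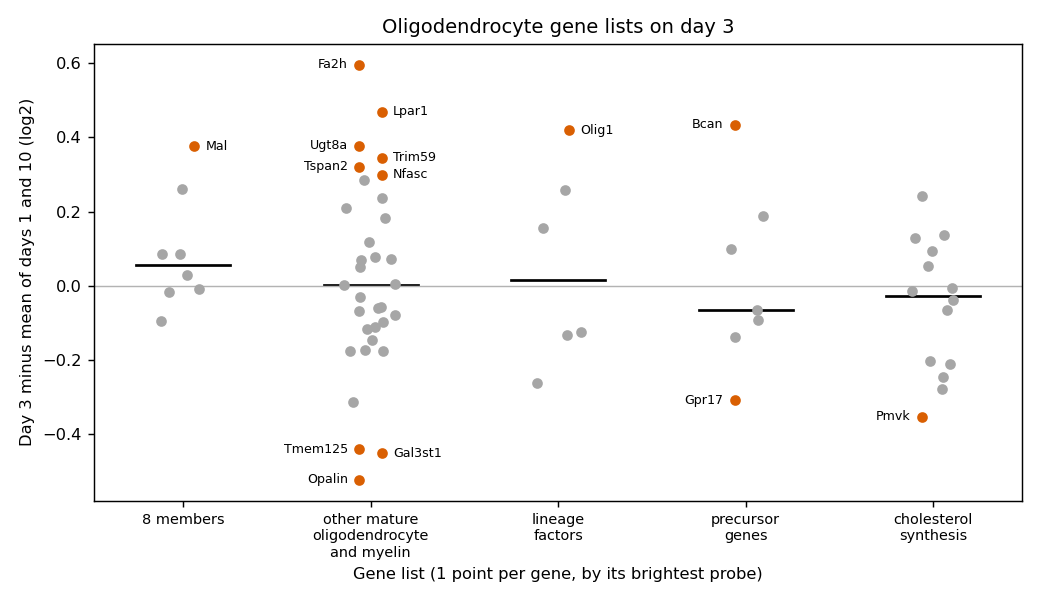
Difference of day 3 from the mean of days 1 and 10 (vertical axis, log2) for each gene of 5 lists (horizontal axis, 1 point per gene, by its brightest probe). Orange points passed an adjusted p under 0.05, and black bars are list medians. Genes past the threshold lie on both sides of 0 among the mature oligodendrocyte genes, 6 above and 3 below, and the median of that list is 0.0034.

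The genes most like the members were sought among the 8596 other named genes whose spread over the arrays was at least that of the members' mean. The mean of the 8 members, each by its brightest probe, moved little, with differences from the control between -0.16 on day 1 and 0.039 on day 10, both at 1250 mg/kg. Over the 7 arrays it correlated best with Mindy2 (r = 0.97), Dscam (0.96), Fign (0.96), Rbfox1 (0.95) and Capns1 (0.95). The most opposite were Kcnj4 (-0.99), Ttc1 (-0.98) and Ep400 (-0.97). These genes are the ends of a ranking of 8596 genes over 7 arrays that share 1 normalization. The members' mean had a standard deviation of only 0.073, and the ranking used quantile-normalized values alone. How high such correlations reach through the search itself was not tested.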

How the data were processed

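Biotin-labelled cRNA from brain was hybridised to Illumina bead arrays, per the labels' protocols. The deposited values are log intensities read here as log2. What base, background step, scaling and rule for blank probes the authors used is not given in the sources read. The table lists 25697 probes, 13304 with values on every array and 12393 with none. A second deposited table has 7 columns whose names match no sample, and they were left out. 

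Arrays were quantile normalized and fitted with limma 3.58.1 in R 4.3.3 (lmFit, eBayes with an intensity trend, Benjamini-Hochberg over all probes, threshold 0.05). Fits for dose and day rest on 2 residual degrees of freedom and 18.0 prior ones, so errors come mostly from the variance shared by all probes; the treatment fit has 5 and 5.75. The script was tested on simulated data. Probe names come from the platform annotation, with symbols brought up to date through Entrez IDs in a RefSeq table (GRCm38.p6); 12150 probes with values had a name and 1154 had none. A gene in a list is its brightest probe. Named genes are all probes of the members, list genes past the threshold or at most the 2 largest differences each way per comparison, and the 5 most and 3 least correlated genes. The members and lists were chosen with earlier results of these data known. Precision is limited by the number of arrays.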

Additional observations from a re-analysis of the deposited data

How the results depend on the processing

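With the deposited values and with median scaling, 1 of the 15 probes passed for day 10 against day 1 in place of 0 (Mbp probe 2810288, at -0.51 and -0.47), and 1 in place of 2 for day 3 (Mal probe 380259). With 1 probe per gene 1 of 8 passed for day 3. Without the day 3 arrays 1 passed for day 10 against day 1 (Trf). Leaving out single arrays gave 0 to 2 probes for day 10 against day 1, with Mag passing without the day 1 array at 50 mg/kg (0.52) and Trf and Mbp probe 4540136 (0.50) without that at 1250 mg/kg. It gave 1 to 4 for day 3, the 4 being without the day 1 array at 1250 mg/kg. For dose and for treatment 0 passed in any alternative run, and for dose these included leaving out each day in turn. The cause of these changes was not tested. The counts of probes past 1.5-fold on each array were the same in the deposited values and after median scaling. No sign of a called value turned. Uncalled values changed sign in 14 of 128 repeats for dose, 17 of 188 for day 10 against day 1, 31 of 173 for day 3 and 4 of 158 for treatment. Those totals are repeats of all member probes, whether called or not. The share of all probes called ran from 0.0 to 0.511% for dose, 1.06 to 5.14% for day 10 against day 1 and 8.61 to 23.4% for day 3, and the share of day 10 calls that were higher was 72.1%, but 30.7% in the deposited values and 44.2% after median scaling. Dose was compared within day and day within dose, as blocks; without these blocks 0 probes passed for dose, 0 for day 10 against day 1 and 2 for day 3. No paired analysis was possible because each condition has 1 array, as far as pairing by replicate number goes.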
